A study of Mus musculus with 6 samples.

Results

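The glucocorticoid-induced genes of muscle described here are 10 genes chosen by symbol: Fkbp5, Tsc22d3, Klf15, Klf9, Ddit4, Sgk1, Zbtb16, Mt1, Mt2 and Cebpd. All 10 were found among the 24411 genes of the count table, and all 10 passed the expression filter that left 12828 genes for testing. RNA was measured by sequencing in whole soleus (Sol), a muscle rich in slow fibers, of 3 WT and 3 LSD1-mKO mice after voluntary wheel running (VWR), with 1 library per mouse. LSD1 is a histone demethylase encoded by Kdm1a. WT mice were C57BL/6 animals with floxed Lsd1 alleles and no CreERT2, and LSD1-mKO mice carried floxed Lsd1 together with CreERT2 under the human ACTA1 promoter. Mice of both genotypes were 8 weeks old when they were given a wheel for 38 days, received tamoxifen at 75 mg/kg on 5 days after 3 days of familiarization, and were followed for 30 days of running. The muscle was collected in the fasted state, without recent access to the wheel, and none of the mice received dexamethasone (Dex). The human ACTA1 promoter is active in muscle cells that differentiate or have differentiated, and RNA of a whole soleus does not show which cells the remaining Kdm1a RNA came from. Totals were 8940206, 10366443 and 10989846 estimated counts for WT replicates 1 to 3. For the LSD1-mKO replicates they were 13563881, 13798059 and 10984664, in the same order.

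Glucocorticoids are adrenal steroids that bind the glucocorticoid receptor, which is held by chaperones until hormone arrives and then binds DNA and raises or lowers transcription. In muscle, the hormone rises with fasting, stress and the time of day, and its targets slow growth signaling, favor protein breakdown and shift fuel use. Several of these targets also respond to other inputs, such as metals for metallothioneins, so their RNA is not a reading of the hormone alone.

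Kdm1a lies on chromosome 4 of GRCm38 (mm10) from 136550540 to 136602723. Kdm1a was 40.5, 38.2 and 33.6 counts per 1000000 after TMM normalization (CPM) for WT replicates 1 to 3, against 14.6, 16.6 and 16.6 CPM for the LSD1-mKO replicates, an order kept for all genes here. All 3 LSD1-mKO libraries lay below all 3 WT libraries, as their labels require. The log2 fold change, always LSD1-mKO over WT here, was -1.23 (SE 0.11, edgeR adjusted p = 0.0160). Leaving out WT replicate 2 or any 1 of the LSD1-mKO mice kept the log2 fold change between -1.26 and -1.17 but put the edgeR adjusted p above the threshold, from 0.111 to 0.209. The muscle label was checked with marker genes. The slow myosin Myh7 averaged 4821 transcripts per 1000000 (TPM, a level per transcript length) over the 6 mice. The type IIA myosin Myh2 averaged 7250 TPM, the type IIX myosin Myh1 averaged 1554 TPM and the type IIB myosin Myh4 averaged 8.13 TPM. Of 4 liver markers, Alb had 1 count in each of 4 libraries and 0 in WT replicates 1 and 2. Apoa1, Serpina1a and Ttr had 0 counts in all 6 libraries, and 0 counts allow at most 3 counts, or 0.217 to 0.362 CPM, in a library. Such floors cover counting error only, since reads copied by PCR are not independent molecules.

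The receptor gene itself, Nr3c1, lies on chromosome 18 from 39410545 to 39519421. Nr3c1 measured 116, 129 and 130 CPM in the WT mice and 139, 121 and 115 CPM in the LSD1-mKO mice. The groups overlapped fully, and the log2 fold change was 0.00 (SE 0.10, edgeR adjusted p = 0.996).

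Of the 17 genes for the receptor, its ligand supply and its cofactors, 16 were tested, with 10 at a fitted level higher in LSD1-mKO and 6 lower. edgeR called 0 of them in either direction, and 1 had an unadjusted p under 0.05, where 6.4% of all genes tested did, while DESeq2 and voom also called 0. Groups without overlap were found for 2 of the 16, Nrip1 and Hsp90aa1, and for 12.7% of all genes tested. The gene at that p was Nrip1, a corepressor of nuclear receptors, at 22.8, 21.5 and 42.2 CPM in WT and 18.3, 13.8 and 17.0 CPM in LSD1-mKO. Every LSD1-mKO value lay below every WT value, with WT replicate 3 far above the rest (log2 fold change -0.82, SE 0.26, edgeR adjusted p = 0.631; -0.43 without WT replicate 3). The chaperone Hsp90aa1 was 95.2, 87.7 and 93.6 CPM in WT and 95.7, 106 and 114 CPM in LSD1-mKO, with a log2 fold change of 0.19 (SE 0.09, edgeR adjusted p = 0.766). Its groups did not overlap either, although WT replicate 1 and LSD1-mKO replicate 1 were almost level. The chaperone Hspa8 was the most abundant gene of the list by CPM, with a mean of 1640.

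Across the 10 glucocorticoid-induced genes, edgeR called 0 at an adjusted p under 0.05, while 2 of the 12828 genes tested (0.0156%) were called, 1 higher and 1 lower (0.0078% each). At an unadjusted p under 0.05, 3 of the 10 (Tsc22d3, Cebpd and Sgk1) were lower in LSD1-mKO, against 2.88% of all genes tested lower, 3.52% higher and 6.4% in either direction. DESeq2 and limma voom also called 0 of the 10 at an adjusted p under 0.05, with 4 and 3 at an unadjusted p under 0.05, against 4.5% and 6.31% of all genes tested. The fitted level was lower in LSD1-mKO for 10 of the 10, where 54.8% of all genes tested were lower, and the median log2 fold change was -0.51 against -0.02 over all genes tested. Without WT replicate 1 the median of the 10 was -0.33, without WT replicate 2 it was -0.80 and without LSD1-mKO replicate 3 it was -0.78. Groups without overlap were found for 2 of the 10, Tsc22d3 and Sgk1, and for 12.7% of all genes tested (6.1% with LSD1-mKO lower). With 1 mouse left out, the number with an unadjusted p under 0.05 was 9 without WT replicate 2 and 5 without LSD1-mKO replicate 3, against 5.68% and 3.78% of all genes tested in the same fits. It was 2 without WT replicate 1 (14.4% of all genes), 3 without WT replicate 3 (4.14%), 2 without LSD1-mKO replicate 1 (7.35%) and 2 without LSD1-mKO replicate 2 (5.59%), and 0 were called each time. The number without overlap was 8 without WT replicate 2, where 21.4% of all genes tested did not overlap, 5 without LSD1-mKO replicate 3, where 18.1% did not, and 2 otherwise. In those 4 settings 33.6% of all genes did not overlap without WT replicate 1, 19.7% without WT replicate 3, 24.6% without LSD1-mKO replicate 1 and 21.5% without LSD1-mKO replicate 2, while 2 of the 10 is 20%. Other scalings, chosen after seeing the data, gave 1 with DESeq2 size factors, 2 with upper quartile and 3 with library size alone or TPM, against 12.6%, 13.0%, 11.8% and 11.5% of all genes. The genes vary together between mice, as the relations between them show, so the 10 directions are not 10 separate observations. The list was also chosen with earlier results of these data known. The shares of all genes tested beside it are therefore a description and not a test of the list. For a single gene, the exact 2-sided permutation test over the 20 ways to split 6 mice cannot give a p under 0.1. In RNA of a whole muscle, fewer cells of a type and less RNA per cell cannot be told apart.

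**Figure D1:**
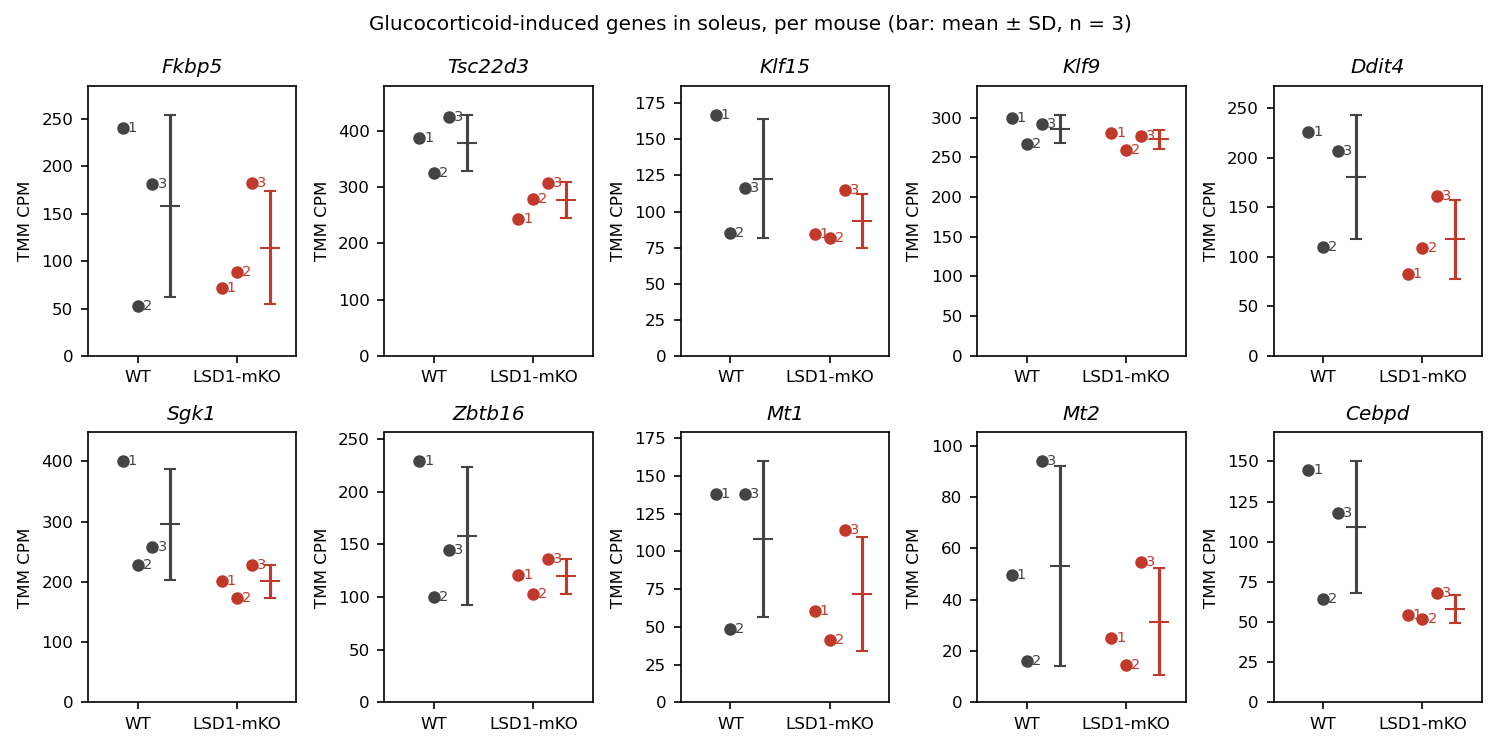
Level of each glucocorticoid-induced gene in each mouse (y axis, TMM-normalized CPM, starting at 0) by genotype (x axis), with the replicate number beside each point and the mean ± SD of 3 mice as a bar. WT replicate 2 lies inside the LSD1-mKO range for 6 of the 10 genes, below it for 2 and above it for 2, and Tsc22d3 and Sgk1 are the genes whose groups do not overlap.

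Tsc22d3 encodes GILZ, an anti-inflammatory leucine zipper protein, and lies on chromosome X from 140539528 to 140600659. Tsc22d3 measured 386, 325 and 423 CPM in WT and 244, 278 and 307 CPM in LSD1-mKO. The lowest WT mouse was replicate 2, and it still lay above the highest LSD1-mKO mouse, replicate 3. This gave a log2 fold change of -0.45 (SE 0.13, edgeR adjusted p = 0.578; exact permutation p = 0.1). Per length of the longest coding transcript, Tsc22d3 stood highest of the 10 genes. It had 425 ± 50.8 TPM (SD, n = 3) for WT mice and, for LSD1-mKO mice, 309 ± 37.0 TPM (SD, n = 3).

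Fkbp5, a cochaperone that lowers the hormone affinity of the receptor, lies on chromosome 17 from 28399094 to 28517527. Fkbp5 was 241, 52.7 and 181 CPM in WT and 72.1, 88.6 and 182 CPM in LSD1-mKO. WT replicates 1 and 3 and LSD1-mKO replicate 3 were high, the other 3 mice were low, and the lowest of all 6 was a WT mouse. Fkbp5 had a log2 fold change of -0.47 (SE 0.52, edgeR adjusted p = 0.887; exact permutation p = 0.7). It moved to -0.04 without WT replicate 1 and to -0.97 without LSD1-mKO replicate 3, so its size rested on single mice.

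Klf15, Klf9, Zbtb16 and Cebpd encode transcription factors. Cebpd, a C/EBP family member on chromosome 16 from 15887286 to 15891031, was 145, 64.3 and 118 CPM in WT and 54.3, 51.8 and 67.9 CPM in LSD1-mKO. The 3 LSD1-mKO mice were close together, WT replicates 1 and 3 were well above them, and WT replicate 2 fell just under LSD1-mKO replicate 3. With library size alone in place of TMM they traded places at 69.0 and 66.4 CPM, as they did in TPM (40.8 and 40.1), and the groups of Cebpd then did not overlap. At -0.91 (SE 0.26, edgeR adjusted p = 0.578; exact permutation p = 0.2), its log2 fold change was the farthest from 0 among the 10 genes. The adjusted p of Cebpd was 0.0713 with DESeq2 and 0.129 with edgeR without WT replicate 2, and ran up to 0.998 over the other settings.

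Klf15, which promotes amino acid breakdown, lies on chromosome 6 from 90462576 to 90475238 and was 167, 85.2 and 116 CPM in WT and 84.3, 81.6 and 115 CPM in LSD1-mKO. WT replicate 1 alone stood above the range of the LSD1-mKO mice by more than 1 CPM. Its log2 fold change was -0.39 (SE 0.24, edgeR adjusted p = 0.781), and it was -0.10 without WT replicate 1 and -0.59 without WT replicate 2. Zbtb16, which encodes the zinc finger protein PLZF, lies on chromosome 9 from 48654297 to 48836222 and was 229, 99.8 and 145 CPM in WT and 121, 103 and 136 CPM in LSD1-mKO. Again WT replicate 1 was the high value, and WT replicate 2 was the lowest of the 6 mice. The log2 fold change was -0.40 (SE 0.26, edgeR adjusted p = 0.796), with -0.03 when WT replicate 1 was left out and -0.64 when WT replicate 2 was.

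Klf9, on chromosome 19 from 23141226 to 23168134, encodes a zinc finger factor of the Krüppel-like family and varied least within groups among the 10 genes. Klf9 measured 299.8, 266 and 291 CPM in WT and 281, 259 and 277 CPM in LSD1-mKO. The groups overlapped, with replicate 2 the lowest mouse of each genotype. For Klf9 the log2 fold change was -0.07 (SE 0.09, edgeR adjusted p = 0.898). It was -0.12 without WT replicate 2 and -0.03 without WT replicate 1 or without LSD1-mKO replicate 2. The SD of its log2 CPM within groups was 0.08, at percentile 9.87 of the genes tested.

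Ddit4 and Sgk1 act on growth signaling, Ddit4 as an inhibitor of mTORC1 and Sgk1 as a kinase related to Akt. Ddit4, on chromosome 10 from 59949669 to 59951834, was 226, 109.6 and 206 CPM in WT and 83.0, 109.1 and 161 CPM in LSD1-mKO. WT replicate 2 and LSD1-mKO replicate 2 were level, and LSD1-mKO replicate 3 came between them and the 2 high WT mice. At its widest gap Ddit4 split into the same sets of 3 mice as Fkbp5. The log2 fold change was -0.62 (SE 0.30, edgeR adjusted p = 0.766; exact permutation p = 0.2). Sgk1, on the same chromosome from 21882184 to 21999903, was 399.6, 228.3 and 258 CPM in WT and 201, 174 and 227.6 CPM in LSD1-mKO. Its groups did not overlap, but WT replicate 2 and LSD1-mKO replicate 3 differed by less than 1 CPM, and with DESeq2 size factors in place of TMM they traded places at 227.1 and 228.8 CPM. The log2 fold change was -0.56 (SE 0.20, edgeR adjusted p = 0.718; exact permutation p = 0.1), and -0.28 without WT replicate 1.

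Mt1 and Mt2 encode metallothioneins, small proteins that bind zinc and copper, and are neighbors on chromosome 8, with Mt2 from 94172664 to 94173568 and Mt1 from 94179082 to 94180327. Between them lie 5513 bases. Mt1 was 138, 48.3 and 138 CPM in WT and 60.3, 41.3 and 114 CPM in LSD1-mKO. WT replicates 1 and 3 and LSD1-mKO replicate 3 were high and the other 3 mice low, the same split as for Fkbp5 and Ddit4. Mt2 was 49.7, 16.1 and 93.8 CPM in WT and 24.9, 14.6 and 54.9 CPM in LSD1-mKO. The same 3 mice were again high, and the groups overlapped for both genes. The log2 fold change was -0.59 for Mt1 (SE 0.45, edgeR adjusted p = 0.828) and -0.77 for Mt2 (SE 0.62, edgeR adjusted p = 0.840). Without WT replicate 3 that of Mt2 was -0.06, and without LSD1-mKO replicate 3 it was -1.43, so the mouse left out set its size. That of Mt1 ran from -1.08 without LSD1-mKO replicate 3 to -0.30 without LSD1-mKO replicate 2. Of the 9 genes for zinc sensing and transport, 9 were tested, 5 had a fitted level above that of WT and 4 below it, and edgeR, DESeq2 and voom called 0, with 0 at an unadjusted p under 0.05 in each. Slc39a1, a zinc importer and the most abundant of them by CPM, was between 59.4 and 72.8 CPM in the 6 mice.

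Levels per length ordered the genes as follows. After Tsc22d3, the means over 6 mice were 187 TPM for Ddit4, 183 for Mt2, 182 for Mt1 and 176 for Sgk1, which overlapped each other across mice. Klf9 had 138 TPM, Klf15 95.7, Fkbp5 77.1, Zbtb16 59.5 and Cebpd 48.9. For Mt1, TPM uses the longest coding transcript of 1085 bases, and a shorter one would raise its value. The order of the genes, with Tsc22d3 first, thus depends on this choice of transcript, and other lengths were not tested.

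Mice of the same genotype differed widely in these genes. WT replicate 1 was the highest of the 6 mice for 8 of the 10 genes and WT replicate 3 for the remaining 2, where WT replicate 1 was the highest mouse for 23.4% and WT replicate 3 for 16.3% of all genes tested. For Mt1, counted with the 8, the 2 mice were level. The count depends on the scaling: in alternatives chosen after seeing the data, WT replicate 1 was the highest for 7 genes with upper quartile, and with library size alone or in TPM each of the 2 mice was the highest for 5 genes. With library size alone WT replicate 1 was the highest for 9.04% and WT replicate 3 for 18.2% of all genes tested. LSD1-mKO replicate 2 was the lowest for 6 genes, and WT replicate 2 and LSD1-mKO replicate 1 were the lowest for 2 each. The median deviation of the 10 genes from their mean log2 CPM over 6 mice was 0.72 in WT replicate 1, -0.32 in WT replicate 2 and 0.48 in WT replicate 3. In LSD1-mKO replicates 1 to 3 it was -0.40, -0.39 and 0.08. By this measure WT replicate 2 was nearer to LSD1-mKO replicates 1 and 2 than to the other WT mice. The median SD of log2 CPM within groups was 0.45 over the 10 genes, against 0.17 over all genes tested and 0.12 over the 4452 genes at least as abundant as the least abundant of the 10. Mt2 was at percentile 99.4 of that SD, Fkbp5 at 98.9 and Mt1 at 98.0.

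**Figure D2:**
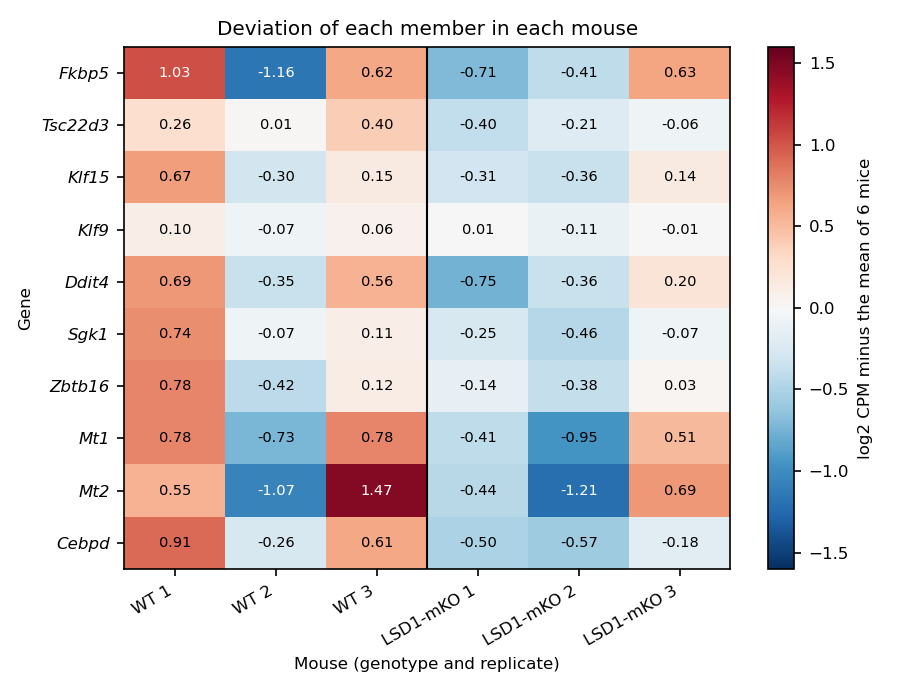
Deviation of log2 CPM from the mean of the 6 mice for each glucocorticoid-induced gene (rows) in each mouse (columns), with WT left and LSD1-mKO right of the line. WT replicates 1 and 3 are above the mean for all 10 genes and LSD1-mKO replicate 2 is below it for all 10, while the widest deviations are 1.47 and -1.21, for Mt2.

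Over the 45 pairs of the 10 genes, Pearson's r of log2 CPM across the 6 mice was above 0 for 45, with a median of 0.84. Of all pairs of tested genes, 49.9% had an r above 0 and 2.71% reached the members' median. With each genotype's mean taken away first, r was above 0 for 45 pairs and the median was 0.84. After Benjamini-Hochberg adjustment over the 45 pairs, 4 had an adjusted p under 0.05 for Pearson's r in the exact permutation test over 720 orders of the mice, and 0 had one for Spearman's rho.

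The pair with the highest r was Klf15 with Zbtb16 (r = 0.964, exact permutation p = 0.00972, adjusted p = 0.0664; rho = 0.829, exact permutation p = 0.0583, adjusted p = 0.114). It was 0.851 without WT replicate 1 and LSD1-mKO replicate 2, the 2 mice farthest from the median of Klf15. Mt1 with Mt2 came next (r = 0.960, exact permutation p = 0.0139, adjusted p = 0.0664; rho = 0.829, exact permutation p = 0.0583, adjusted p = 0.114). Without WT replicate 2 and LSD1-mKO replicate 2 their r was 0.879. The values of Mt1 and Mt2 fall into 2 sets of 3 mice, so this r takes in the distance between the sets. How large that part is was not tested, and the relation inside a set of 3 cannot be tested. How reads that fit both genes were shared between them is not given in the sources used here, which bears on both levels and on their r. The estimated counts were not whole numbers in 1 library for Mt1 and 2 for Mt2. Klf15 with Sgk1 was the next (r = 0.930, exact permutation p = 0.00278, adjusted p = 0.0417; rho = 0.943, exact permutation p = 0.0167, adjusted p = 0.0833) and gave 0.719 without WT replicate 1 and LSD1-mKO replicate 2. The lowest r was that of Sgk1 with Mt2 (r = 0.571, exact permutation p = 0.239, adjusted p = 0.239; rho = 0.600, exact permutation p = 0.242, adjusted p = 0.265), and 0.675 without WT replicate 1 and LSD1-mKO replicate 2.

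Among all genes tested, the gene most alike to each of the 10 across the 6 mice was found by Pearson's r of log2 CPM, as a description of 6 points chosen among 12828 genes. These were Pnmt for Fkbp5 (r = 0.991), 1810026B05Rik for Tsc22d3 (r = 0.991), Ip6k3 for Klf15 (r = 0.991) and Dnajb4 for Klf9 (r = 0.986). Srek1 was nearest to Ddit4 (r = 0.990), Med26 to Sgk1 (r = 0.998) and Tfdp2 to Zbtb16 (r = 0.993). Slc43a3 was nearest to Mt1 (r = 0.996), Abhd10 to Mt2 (r = 0.981) and Irf2bp2 to Cebpd (r = 0.994). None of the 10 nearest genes was itself one of the 10.

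A wider list of 25 other glucocorticoid-induced genes had 24 tested genes, with 22 at a lower fitted level in LSD1-mKO and 2 higher, and a median log2 fold change of -0.36. edgeR, DESeq2 and voom each called 0 of them, and in edgeR 6 had an unadjusted p under 0.05, each in the direction of a lower level, beside the 54.8% of all genes tested that were lower and the 2.88% that were lower at that p. No overlap between groups was seen for 4 of the 24, against the 12.7% of all genes given above. Irs2, an adaptor of the insulin receptor, was 83.7, 27.5 and 42.2 CPM in WT and 24.1, 19.2 and 21.5 CPM in LSD1-mKO. All LSD1-mKO mice lay below all WT mice, and WT replicate 1 was the highest (log2 fold change -1.23, SE 0.35, edgeR adjusted p = 0.578; -0.69 without WT replicate 1). Glul, glutamine synthetase, was 739, 421 and 513 CPM in WT and 328, 410 and 398 CPM in LSD1-mKO, also without overlap (log2 fold change -0.56, SE 0.20, edgeR adjusted p = 0.701; -0.30 without WT replicate 1). The clock gene Per1 was 139.7, 111.3 and 144.4 CPM in WT and 103, 94.5 and 111.0 CPM in LSD1-mKO, where WT replicate 2 and LSD1-mKO replicate 3 nearly met (log2 fold change -0.36, SE 0.12, edgeR adjusted p = 0.665). The transcription factor gene Foxo3 was 19.2, 18.3 and 26.0 CPM in WT and 18.2, 15.8 and 15.4 CPM in LSD1-mKO, with WT replicate 2 and LSD1-mKO replicate 1 nearly level (log2 fold change -0.36, SE 0.16, edgeR adjusted p = 0.766; -0.18 without WT replicate 3). Pdk4, which restrains pyruvate oxidation and was the most abundant of the list by CPM, went the other way in its fitted level (log2 fold change 0.39, SE 0.34, edgeR adjusted p = 0.860). The value was 0.07 without WT replicate 2, 0.22 without LSD1-mKO replicate 1 and 0.69 without WT replicate 1. Pdk4 was lowest in WT replicate 2, at 972 CPM, and highest in LSD1-mKO replicate 1, at 3133 CPM.

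Among 15 relatives of the 10 genes, 12 were tested, 5 were higher and 7 lower in fitted level, and edgeR, DESeq2 and voom called 0, with 2 higher at an unadjusted p under 0.05 in edgeR, where 54.8% of all genes tested were lower and 3.52% were higher at that p. Sgk3, a kinase of the Sgk1 family, was 11.9, 13.2 and 12.5 CPM in WT and 16.8, 16.0 and 17.0 CPM in LSD1-mKO. Sgk3 was the higher in LSD1-mKO, opposite to Sgk1 (log2 fold change 0.40, SE 0.11, edgeR adjusted p = 0.556). It was the only 1 of the 12 whose groups did not overlap, against 12.7% of all genes tested. Tsc22d1 was the most abundant relative by CPM, at 172 to 224 CPM in the 6 mice. Sgk2 and Mt4 had 0 counts in all 6 libraries.

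Of 17 circadian clock genes, 16 were tested, 6 higher and 10 lower in fitted level, and edgeR and voom called 0 and DESeq2 called 1, with 1 higher and 3 lower at an unadjusted p under 0.05 in edgeR. Of all 12828 genes tested, 3.52% were higher and 2.88% lower at that p, and DESeq2 called 42. Groups without overlap were found for 4 of the 16 clock genes, against 12.7% of all genes tested. Arntl, which encodes BMAL1, was 2.77, 4.41 and 3.38 CPM in WT and 9.17, 7.17 and 8.38 CPM in LSD1-mKO. Every LSD1-mKO mouse was above every WT mouse (log2 fold change 1.21, SE 0.21, edgeR adjusted p = 0.269), and DESeq2 gave an adjusted p of 0.00850. Cry1 and Cry2, repressors of BMAL1, had groups that did not overlap, with log2 fold changes of -0.16 (SE 0.10, edgeR adjusted p = 0.782) and -0.14 (SE 0.08, edgeR adjusted p = 0.777; -0.09 without WT replicate 1). Tef was the most abundant clock gene by CPM, at 326 to 403 CPM. Of 16 immediate early genes, 15 were tested and all 15 had a lower fitted level in LSD1-mKO, with 6 at an unadjusted p under 0.05 in edgeR, where 54.8% of all genes tested were lower and 2.88% were lower at that p. On that list edgeR and voom called 0 and DESeq2 called 1. Groups without overlap were found for 2 of the 15, against 12.7% of all genes tested. Btg2 was 132, 87.0 and 226 CPM in WT and 56.0, 54.1 and 63.2 CPM in LSD1-mKO. Its groups did not overlap and WT replicate 3 stood highest (log2 fold change -1.36, SE 0.30, edgeR adjusted p = 0.377), with a DESeq2 adjusted p of 6.28e-04. Fosl2 was 27.7, 28.6 and 32.3 CPM in WT and 22.3, 18.8 and 16.6 CPM in LSD1-mKO, without overlap (log2 fold change -0.62, SE 0.13, edgeR adjusted p = 0.340). The summed level of the list, in which Jun was the most abundant gene, was 679, 498 and 868 CPM in WT and 449.9, 425 and 456 CPM in LSD1-mKO. The immediate early sum was thus lower in every LSD1-mKO mouse, whereas the sum of the 10 glucocorticoid-induced genes, at 2280, 1295 and 1971 CPM in WT and 1226, 1200 and 1643 CPM in LSD1-mKO, overlapped between genotypes. Both the clock list and the immediate early list were chosen with earlier results of these data known, so their shares are descriptions. The part of the clock and immediate early genes in the values of the 10 genes was not tested.

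Markers of other cells also differed between mice. Of the 6 fibroblast markers, Dcn was the most abundant by CPM. They summed to 1329, 3437 and 4395 CPM in WT and 2801, 1361 and 1488 CPM in LSD1-mKO. The fitted level was lower in LSD1-mKO for 6 of 6, where 54.8% of all genes tested were lower. The median log2 fold change of the 6 was -0.73, and that of Dcn (-0.04) was the smallest in size. The value of Dcn turned above 0 with voom (0.0378), with the replicate block (0.0197) and without WT replicate 3 (0.13). The 8 leukocyte markers, led by Csf1r, summed to 42.7, 147 and 121 CPM in WT and 94.6, 43.7 and 64.0 CPM in LSD1-mKO. Their fitted level was also lower in LSD1-mKO for 6 of the 6 tested. WT replicate 1 was the lowest of the 6 mice on both lists and WT replicate 3 the highest on the fibroblast list, while both lay above the mean log2 CPM of the 6 mice for each of the 10 glucocorticoid-induced genes. Endothelial markers, led by Cdh5, summed to between 598 and 812 CPM. Of the 8, 1 did not overlap between groups, against 12.7% of all genes tested. This was Vwf (log2 fold change -0.45, SE 0.14, edgeR adjusted p = 0.619). Adipocyte markers, led by Fabp4, summed to between 516 and 614 CPM, Schwann cell markers, led by Pmp22, to between 135 and 159, and smooth muscle markers, led by Myh11, to between 226 and 305. Red blood cell markers, led by Hba-a2, summed to between 201 and 535 CPM. Satellite cell markers, led by Sdc4, summed to 147, 84.3 and 133 CPM in WT and 108, 77.6 and 105 CPM in LSD1-mKO. Like the sum of the 10 genes, this sum was highest in WT replicate 1, next in WT replicate 3 and lowest in LSD1-mKO replicate 2. Sdc4 made up much of it, at 109, 40.4 and 79.9 CPM in WT and 62.9, 46.2 and 73.7 CPM in LSD1-mKO. Other markers of the list ran differently, with Pax7 lowest in WT replicate 1 (2.89 CPM) and Myf5 lowest in WT replicate 3 (2.31 CPM). The fitted level was higher in LSD1-mKO for 2 of the 4 and lower for 2. Slow fiber markers, led by Myh7, summed to between 32601 and 42303 CPM and fast fiber markers, led by Myh2, to between 50078 and 73084, the last in WT replicate 1. edgeR, DESeq2 and voom called 0 genes on each of these lists. At an unadjusted p under 0.05 in edgeR, 1 endothelial and 1 satellite cell marker were lower, 1 red blood cell marker was higher, and 0 passed on the other lists. That red blood cell marker, Hba-a1, was 13.5, 5.76 and 0 CPM in WT and 2.59, 78.0 and 202 CPM in LSD1-mKO. Its groups overlapped, and the other 4 on its list had a lower fitted level in LSD1-mKO. The part of these cell markers in the values of the 10 genes was not tested.

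The promoters of the neighbors Mt1 and Mt2 are shown from the RefSeq table of GRCm38.p6 promoters of 300 bases, 5′ to 3′ on the gene's strand. Capitals mark the core of the metal response element, searched on both strands as TGCGCNC and TGCACNC. Mt1 is chr8:94178839-94179138 and Mt2 is chr8:94172368-94172667, each on the + strand.
Mt1: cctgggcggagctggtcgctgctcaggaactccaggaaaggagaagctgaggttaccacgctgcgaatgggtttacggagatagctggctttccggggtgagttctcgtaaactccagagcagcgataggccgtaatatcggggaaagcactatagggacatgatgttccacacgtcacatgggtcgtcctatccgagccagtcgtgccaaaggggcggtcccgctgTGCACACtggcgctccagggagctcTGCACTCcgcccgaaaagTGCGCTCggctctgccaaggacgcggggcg
Mt2: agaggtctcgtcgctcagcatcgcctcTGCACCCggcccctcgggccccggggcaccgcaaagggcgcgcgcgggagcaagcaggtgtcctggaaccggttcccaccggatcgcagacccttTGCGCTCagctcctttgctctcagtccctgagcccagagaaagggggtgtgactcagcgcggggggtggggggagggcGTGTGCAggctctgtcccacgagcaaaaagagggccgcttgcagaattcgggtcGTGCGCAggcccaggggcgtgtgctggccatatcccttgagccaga
Mt1 holds 1 match to TGCGCNC and 2 to TGCACNC, and Mt2 holds 2 and 2. Of Fkbp5 and Ddit4, which split the mice in the same way, Fkbp5 holds 0 matches and Ddit4 holds 1, to TGCGCNC. Klf15 and a start of Sgk1 at chr10:21994416-21994715, genes that split the mice otherwise, also hold 1 match each, to TGCGCNC. The starts of Tsc22d3 and Klf9 hold 0. Of the 32851 promoters of the same length, 15.4% hold TGCGCNC and 12.6% hold TGCACNC.

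The palindrome of the glucocorticoid response element, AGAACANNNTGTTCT, was searched in the same table, where 15 promoters belong to 8 of the 10 genes and Zbtb16 and Cebpd have no entry. It occurs in 1 of them, a start of Sgk1 at chr10:21993640-21993939 on the + strand, and in 3 of the 32851 promoters (0.00913%). Capitals mark AGAACA or its reverse complement TGTTCT, a single arm that 19.0% of all promoters hold and that occurs here 3 times, 2 of them within the palindrome, with the bases between its arms also in capitals.
Sgk1: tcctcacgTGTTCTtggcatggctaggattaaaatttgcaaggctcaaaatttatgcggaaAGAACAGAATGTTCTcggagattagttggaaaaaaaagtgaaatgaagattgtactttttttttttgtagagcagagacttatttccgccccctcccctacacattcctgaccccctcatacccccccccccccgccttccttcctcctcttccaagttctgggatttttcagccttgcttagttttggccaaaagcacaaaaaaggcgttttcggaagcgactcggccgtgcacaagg
The table has 6 starts for Sgk1, and the counts per gene do not say which start was used. The matches are descriptions of letters in these windows.

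**Figure D3:**
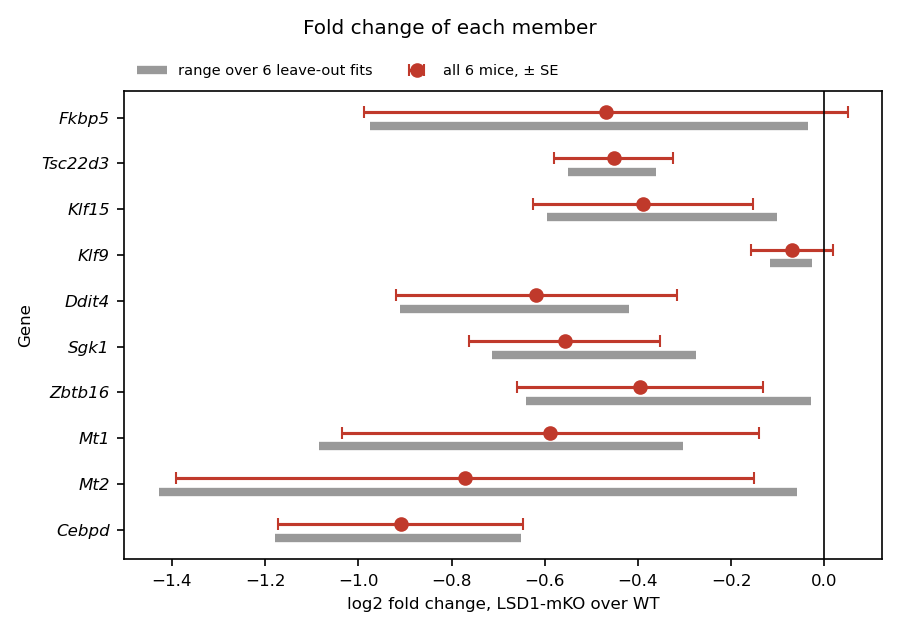
Log2 fold change of each glucocorticoid-induced gene, LSD1-mKO over WT (x axis), from edgeR with all 6 mice (points, ± SE) and its range over the 6 fits that each leave out 1 mouse (grey lines). Every range lies below 0, and those of Fkbp5, Zbtb16, Klf9 and Mt2 come within 0.06 of it.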

How the data were processed

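Poly(A) RNA of whole soleus from 3 WT and 3 LSD1-mKO mice was sequenced in 75-base reads from a single end. The authors used STAR with mm10 and deposited unnormalized estimated counts of each gene; the counting tool and annotation are not given in the sources used here. A deposited table of the authors' DESeq2 comparison was not used. Estimated counts were rounded and fitted with edgeR 4.0.16 in R 4.3.3 (TMM, filterByExpr by genotype, quasi-likelihood test), adjusting p over all 12828 tested genes by Benjamini-Hochberg, with 0.05 as the threshold. The SE was the log2 fold change divided by the square root of F. Single genes were compared by an exact permutation test of CPM. Relations used log2 CPM with a prior count of 1. TPM and coordinates came from GENCODE vM21. Alternatives were DESeq2 1.42.0, limma 3.58.1 (voom), other scalings and filters, the replicate block and each mouse left out. The fits were tested on simulated data. No pair of libraries was as alike as repeated draws, with a chi-square per gene of at least 9.9. The members and lists were chosen with earlier results of these data known. Named genes are the members, Kdm1a, Nr3c1, and from each list its most abundant gene by CPM, genes with 0 counts, genes past the threshold and up to 4 with the smallest unadjusted p among those without overlap. The gene most alike to each member is named too. Myh1, Myh4, Pax7, Myf5 and Hba-a1 were named after their values were seen.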

Additional observations from a re-analysis of the deposited data

How the results depend on the processing

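In all 14 other fits, 0 of the 10 glucocorticoid-induced genes were called and 0 had a higher level in LSD1-mKO; 45 of 45 pairs kept an r above 0 without the 2 mice farthest from the median. Genes called, 2 with all mice, were 42 with DESeq2, 11 with no filter and 1 to 3 with 1 mouse left out. Replicate numbers did not pair the mice (correlations of deviations of same-numbered mice -0.346, -0.115 and -0.155); with the replicate block 1 gene was called, Kdm1a had an adjusted p of 0.299 from edgeR, and Nr3c1 had a log2 fold change of -4.73e-05 and Dcn 0.0197. The number of the 10 without overlap, whose alternatives were chosen after seeing the data, was 1 with DESeq2 size factors, 2 with upper quartile, 3 with library size alone or TPM, and 2 to 8 with 1 mouse left out. The number highest in WT replicate 1, 8 with TMM, was 8 with DESeq2 size factors, 7 with upper quartile and 5 with library size alone or TPM, alternatives also chosen after seeing the data. Members at an unadjusted p under 0.05, 3 in edgeR with all mice, were 5 with the replicate block (4.29% of all genes tested), Mt1 and Mt2 among them, and 4 with no filter (5.8%). Some uncalled values changed sign. Nr3c1 was -6.8e-05 with voom, -0.0021 with upper quartile and -0.0237 with library size alone, Dcn 0.0378 with voom, and Tsc22d1 -0.0051 and Myh11 -4.42e-04 with library size alone. Leaving out 1 mouse gave log2 fold changes from -0.0794 to 0.0617 for Nr3c1, -0.0435 to 0.13 for Tsc22d1, -0.14 to 0.0621 for Myh7, -0.33 to 0.0130 for Cdh5 (-0.17 with all mice), -0.16 to 0.0035 for Fabp4, -0.30 to 0.13 for Dcn, -0.10 to 0.11 for Pmp22, -0.85 to 0.0132 for Hba-a2 (-0.58 with all mice), -0.0593 to 0.16 for Myh11 and -0.63 to 0.0174 for Sdc4 (-0.32 with all mice). The median log2 fold change of the 10 genes was -0.33 without WT replicate 1 and -0.80 without WT replicate 2. Each group had 3 mice, with totals of 8940206 to 13798059 estimated counts. The causes of the differences between settings were not tested.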
